A study of Rattus norvegicus with 18 samples.

Results

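Chemokines are small secreted or cell-bound proteins that steer white blood cells, and 9 of the genes of this system were followed here across 18 arrays of rat hypothalamus. The set holds 5 inflammatory or constitutive ligands of the CC and CXC families (Cxcl12, Ccl2, Ccl5, Cxcl10 and Ccl3), the membrane-bound ligand Cx3cl1, and the receptors Cxcr4, Cx3cr1 and Ccr2. They were chosen as named genes of this system, with earlier results of these data known, and their probes were found through the transcript accession. All 9 had a probe, 11 probes in all with 3 for Cxcl12, and 8 of the 9 reached the level needed for testing, among 13051 named genes that did. The rats were male Wistar animals, 5 weeks old at the start and 9 weeks old when sampled. Each of the 3 groups had 6 rats, with 1 hypothalamus and 1 array per rat. Control rats were left without restraint and without a wheel. Stressed rats were restrained for 1 to 1.5 h a day, 5 days a week, over 3 weeks. Exercised stressed rats had the same restraint and free access to a running wheel for 4 weeks, starting 1 week before the restraint. No group ran without restraint, so running was measured only on top of stress.

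Chemokine receptors are G protein-coupled receptors, and each group of ligands draws cells that carry the matching receptor. Cxcl12 acting on Cxcr4 holds blood-forming cells in the marrow and guides neurons and vessels in the brain. Cx3cl1 (fractalkine) is made by neurons, is shed by the proteases Adam10 and Adam17, and acts on Cx3cr1, which in the brain is carried by microglia. Ccl2 draws Ccr2-bearing monocytes out of the marrow and into inflamed tissue, while Ccl5, Cxcl10 and Ccl3 are induced by cytokines and attract T cells, monocytes and other leukocytes.

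Levels are given as the log2 processed signal minus the 75th percentile of that array's probes, so that a difference of 1 is a 2-fold difference in signal. The level of a probe is compared only with the same probe on other arrays. Per array, 63.6% to 77.7% of the 45598 probes had a signal well above background. Of 12 hypothalamic marker genes, 11 were well above background on all 18 arrays, and Otp on 4. The arrays lay on 5 slides, and the slide was not balanced over the groups. Control rats lay on slides 1 and 2, stress 1 to 4 on slide 3, stress 5 and 6 together with exercised 1 and 2 on slide 4, and exercised 3 to 6 on slide 5. Slides 1 to 3 and slides 4 to 5 are called slide sets below, and slides 2 and 4 were scanned on another day than the rest. No slide held both control and stressed rats or both control and exercised rats, so slide and group cannot be told apart in those contrasts. A model with the slide set as a second term rests on stress 1 to 4 against control, and on exercised rats against stress 5 and 6. In whole tissue, fewer cells of a type and less RNA per cell cannot be told apart.

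Between stressed and control rats none of the 8 tested members passed limma's test at an adjusted p of 0.05, and 2 had an unadjusted p under 0.05 (Cxcr4 and Ccl5). Over all named genes 0% passed in that contrast, with 3755 of 31293 probes at an unadjusted p under 0.05. Between exercised and stressed rats none of the 8 passed either, with 1 unadjusted p under 0.05 (Cx3cl1), against 3.27% of named genes that passed (1.6% higher and 1.67% lower). Between exercised and control rats 2 of 8 passed. Cx3cr1 was 1.49-fold lower and Cxcr4 1.24-fold higher in the exercised rats. In that contrast 28% of all named genes passed, so a count of 2 of 8 is near the background. With the slide set in the model none of the 8 members passed in any contrast, and 0.00766% of named genes passed between exercised and control rats.

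**Figure D1:**
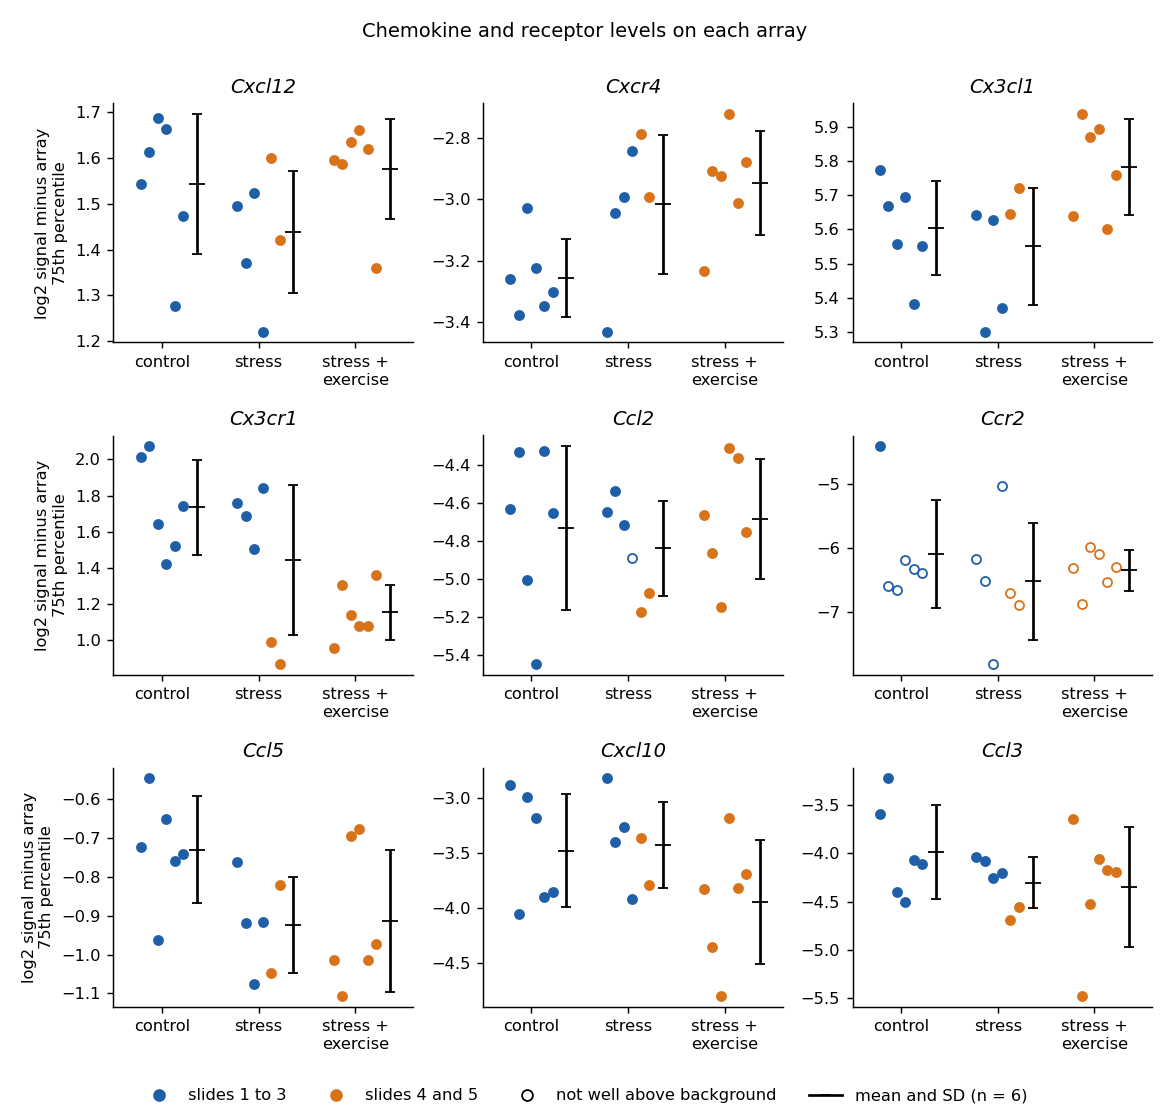
Level of each of the 9 genes (brightest probe, log2 signal minus the array's 75th percentile) on each of the 18 arrays; points are rats, blue for slides 1 to 3 and orange for slides 4 and 5, open where the probe was not well above background, with mean and SD of the 6 rats. In the Cx3cr1 panel stress 5 and 6, at 0.99 and 0.87, lie with the exercised rats, and in the Ccr2 panel 1 of 18 points is filled.

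Of the constitutive pair, the receptor Cxcr4 was higher in exercised than in control rats and its ligand Cxcl12 did not pass the test in any contrast. Cxcr4 (probe A_44_P425580) ranged from -3.38 to -3.03 with a median of -3.28 in control rats, from -3.43 to -2.79 with a median of -2.99 in stressed rats, and from -3.23 to -2.72 with a median of -2.92 in exercised rats. The exercised and control ranges overlapped through exercised 1 at -3.23 and control 3 at -3.03. Cxcr4 rose by 0.31 (SE 0.10, 95% interval 0.10 to 0.52, adjusted p = 0.0293) between control and exercised rats, with all 6 exercised rats above the control mean, where 18.1% of named genes were called higher. The stressed rats stood 0.24 above control (SE 0.10, adjusted p = 0.377), with 5 of 6 above the control mean, and 0.070 below exercised rats (95% interval of exercised minus stressed -0.14 to 0.28). Leaving out control 2, 5 or 6, or exercised 2, 4 or 6, ended the call (adjusted p from 0.0521 to 0.0697). With slide set as a second term the difference was 0.12 (SE 0.18, adjusted p = 0.891), with slide as a random block 0.27 (adjusted p = 0.368), and after normexp background correction 0.12 (adjusted p = 0.119). Within scan day 1 it was 0.16 (SE 0.13, adjusted p = 0.443, 2 exercised and 4 control rats). Within scan day 2 it was 0.44 (SE 0.15, adjusted p = 0.0746, 4 exercised and 2 control rats), and neither passed.

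Cxcl12 was read by 3 probes, of which A_64_P135474 carries the accession of another transcript than the others. The brightest (A_44_P337351) had group means of 1.54 ± 0.15 in control, 1.44 ± 0.13 in stressed and 1.58 ± 0.11 in exercised rats (SD, n = 6), ranges of 1.28 to 1.69, 1.22 to 1.60 and 1.36 to 1.66, and medians of 1.58, 1.46 and 1.61. All 3 groups overlapped, and the differences were -0.10 (95% interval -0.27 to 0.056), 0.14 (-0.022 to 0.30) and 0.034 (-0.13 to 0.19) for stressed minus control, exercised minus stressed and exercised minus control. The probe A_64_P135474 gave 0.053, 0.21 and 0.26 for the same contrasts, with adjusted p of 0.908, 0.357 and 0.166. The probe A_44_P1156527 gave -0.11, 0.20 and 0.092. The probes thus differed in sign for stressed minus control and had the same sign in the other contrasts, with none of the 3 past the threshold. Ackr3, the scavenger receptor that also binds Cxcl12, differed by -0.16 between exercised and control rats (SE 0.085, adjusted p = 0.183).

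To show the DNA before these genes, the start windows of the 2 members that passed and of the cytokine-induced ligand Cxcl10 are printed from RefSeq on build GRCr8, from 250 bases before to 50 after the annotated start, 5′ to 3′ on the gene's strand. Windows were found for 6 of the 9 members. Capitals mark exact matches, on either strand, to a TATA box (TATAAA), a GC box (GGGCGG), a PU.1 core (GAGGAA), a hypoxia element core (ACGTG), an interferon element (GAAA, any 2 bases, GAAA) or the NF-kappaB consensus.
Cxcr4, chr13:42634239-42634538, minus strand: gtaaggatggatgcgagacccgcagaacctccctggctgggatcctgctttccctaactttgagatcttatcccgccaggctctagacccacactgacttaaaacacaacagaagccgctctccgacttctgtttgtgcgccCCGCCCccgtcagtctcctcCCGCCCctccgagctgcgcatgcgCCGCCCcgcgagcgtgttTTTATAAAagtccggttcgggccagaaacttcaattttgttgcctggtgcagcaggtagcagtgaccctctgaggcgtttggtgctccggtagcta
Cx3cr1, chr8:128677017-128677316, minus strand: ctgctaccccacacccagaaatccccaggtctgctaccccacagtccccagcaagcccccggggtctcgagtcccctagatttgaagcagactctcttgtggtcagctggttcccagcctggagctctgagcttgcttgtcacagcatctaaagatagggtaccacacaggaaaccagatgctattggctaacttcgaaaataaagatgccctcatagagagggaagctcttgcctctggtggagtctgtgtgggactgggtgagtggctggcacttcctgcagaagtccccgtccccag
Cxcl10, chr14:15988816-15989115, plus strand: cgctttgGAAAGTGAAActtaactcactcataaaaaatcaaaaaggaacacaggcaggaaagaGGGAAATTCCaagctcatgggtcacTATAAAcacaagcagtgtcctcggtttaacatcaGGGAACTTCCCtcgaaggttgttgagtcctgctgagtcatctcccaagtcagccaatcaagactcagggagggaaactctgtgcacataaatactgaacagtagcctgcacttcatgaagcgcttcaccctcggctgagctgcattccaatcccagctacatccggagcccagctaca
The Cxcr4 window held 3 GC boxes and 2 TATA box matches on opposite strands that overlap, from bases -46 and -44 before the start. The Cx3cr1 window, of the receptor that was lower in exercised rats, held no match to any of the 6. The Cxcl10 window held 1 interferon element, 1 TATA box and 3 NF-kappaB matches, of which those from bases -128 and -127 overlap on opposite strands. Among 33469 windows of this length, 33.1% held a GC box, 14.2% a TATA box, 27.6% a PU.1 core, 19.3% a hypoxia element core, 3.92% an interferon element and 7.51% an NF-kappaB match. A match is a string of letters, and no factor's binding was measured.

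Cx3cr1, the fractalkine receptor, had the largest of the 8 members' differences between exercised and control rats. On its only probe (A_64_P008406) the level in control rats ran from 1.42 to 2.07 with a median of 1.69, in stressed rats from 0.87 to 1.84 with a median of 1.60, and in exercised rats from 0.96 to 1.36 with a median of 1.11. Every exercised rat lay below every control rat, and the stressed rats reached into both ranges. Cx3cr1 fell by 0.58 between control and exercised rats (SE 0.16, 95% interval -0.92 to -0.24, adjusted p = 0.0144), where 9.84% of named genes were called lower and 18.6% had groups that did not overlap. It stood 0.29 lower in stressed than in control rats (adjusted p = 0.474) and 0.29 lower in exercised than in stressed rats (adjusted p = 0.288), and neither passed. Leaving out each of the 18 arrays in turn kept the call between exercised and control rats, with adjusted p from 0.00615 to 0.0347.

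The stressed rats split by slide. Stress 1 to 4, on slide 3, had Cx3cr1 levels of 1.51 to 1.84, within the control range, while stress 5 and 6, on the slide shared with exercised 1 and 2, had 0.99 and 0.87. In a model of group by slide set, Cx3cr1 was 0.77 lower on slide 4 than on slide 3 within the stressed group (SE 0.16, adjusted p = 0.00349), where 9.66% of named genes were called higher and 6.8% lower, and 40.9% had arrays that did not overlap. Some of the listed pituitary, mural and fibroblast markers also differed between slides 4 and 3 of the stressed group. The mean level of 3 pituitary markers (Cga, Lhb and Pomc) was 2.12 to 2.84 in stress 1 to 4 and -1.52 to -1.17 in stress 5 and 6. Cga (-11.0) and Lhb (-0.43) were called lower, while Pomc (-0.037, adjusted p = 0.912) was not. The mean of 10 mural and fibroblast markers was -0.76 to -0.23 against -1.41 to -1.29. Their median difference was -0.92, beside 0.060 over all named genes, and 9 of 10 were below 0. Acta2 and Lum were called lower, while Pdgfrb (-0.0087) and Rgs5 (0.13) were not called. Other lists differed too. All 7 neuronal markers were above 0, with a median of 0.16 and 2 called higher, and 1 of 7 oligodendrocyte markers was called higher. Called lower were 2 of 11 endothelial, 1 of 5 choroid plexus and 1 of 8 astrocyte markers. Exercised 1, 2, 4 and 5 had pituitary means of 1.47 to 2.08 with Cx3cr1 at 0.96 to 1.31. Exercised 3 and 6 had pituitary means of -1.20 and -0.73 with Cx3cr1 at 1.14 and 1.36. Control 3 and 4 had -0.038 and -1.23 with Cx3cr1 at 1.64 and 1.42. Control 1, 2, 5 and 6 had 1.88 to 2.18 with Cx3cr1 at 1.52 to 2.07. The part of pituitary, mural, fibroblast or any other of these tissues in the Cx3cr1 differences was not tested. With the slide set in the model, exercised minus control was 0.19 (SE 0.19, 95% interval -0.23 to 0.60, adjusted p = 0.84), the opposite sign, and exercised minus stressed was 0.22 (SE 0.15). With slide as a random block, exercised minus control was -0.52 (adjusted p = 0.13). Control rats also differed by slide, with 2.01 and 2.07 on slide 1 and 1.42 to 1.74 on slide 2. Within scan day 1, Cx3cr1 was 0.45 lower in exercised than in control rats (SE 0.13, adjusted p = 0.0517, where 7.54% of named genes were called lower) and 0.65 lower in stress 5 and 6 than in control rats (adjusted p = 0.0208, where 5.46% of named genes were called lower), while exercised 1 and 2 were 0.20 above stress 5 and 6 (adjusted p = 0.599). Within scan day 2, where the controls were 2 rats, exercised rats were 0.88 below control (SE 0.11, adjusted p = 0.000799, where 7.24% were called lower) and 0.53 below stress 1 to 4 (adjusted p = 0.00304, where 8.51% were called lower). Without stress 5 and 6, exercised rats were 0.54 below the stressed rats (SE 0.12, adjusted p = 0.00443), where 9.35% of named genes were called lower.

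Other microglial markers were read beside Cx3cr1. Of 13 listed genes, 12 were tested and all 12 were well above background on every array, among them the purinergic receptor P2ry12, the growth factor receptor Csf1r, the lipid receptor Trem2 and the complement genes C1qa, C1qb and C1qc. Between exercised and control rats 0 of 12 were called lower and 1 was called higher, Tmem119, which rose by 0.29 (SE 0.059, adjusted p = 0.00203) and differed by 0.23 with the slide set in the model (adjusted p = 0.527). Beside the 9.84% of named genes called lower and 18.1% called higher in this contrast, these counts are near the background, as are those of the blood and perivascular lists in the same contrast. Their median difference was 0.09, beside 0.051 over all named genes. The mean level of the 12 ran from 1.39 to 1.46 in control, from 1.36 to 1.50 in stressed and from 1.44 to 1.63 in exercised rats. Between slides 4 and 3 of the stressed group, Aif1, a calcium-binding protein of microglia and macrophages, was higher by 0.17 (SE 0.056, adjusted p = 0.045) and none of the 12 was called lower, where 6.8% of named genes were. Itgam, a myeloid gene kept in the adhesion list and not among the 12, was called lower in both contrasts, as Cx3cr1 was. It differed by -0.38 between exercised and control rats and by -0.34 between slides 4 and 3 (adjusted p = 0.0413). Among blood leukocyte markers 1 of 8 tested was called, Cd3d of the T cell receptor complex, which fell by 0.58 between control and exercised rats (SE 0.12, adjusted p = 0.00259) and differed by 0.082 with the slide set in the model. Between slides 4 and 3 of the stressed group 2 of these 8 were called lower, Cd3d by 0.67 (SE 0.085, adjusted p = 3.48e-05) and the lysozyme gene Lyz2 by 0.44 (SE 0.14, adjusted p = 0.042). There 7 of 8 differences were below 0, with a median of -0.45 beside 0.060 over all named genes. The mean level of the 8 blood markers ran from -2.92 to -2.38 in control, from -3.04 to -2.36 in stressed and from -2.86 to -2.32 in exercised rats, and neither Cd8a nor Elane was well above background on a single array. Of the perivascular macrophage markers 0 of 4 tested passed, with means from -3.72 to -3.25, from -3.91 to -3.21 and from -3.92 to -3.25, and Mrc1 was well above background on 0 of 18. Over 18 arrays the r of Cx3cr1 levels with the 12 microglial markers ran from -0.67 (Aif1) to 0.11 (Trem2). After the means of group by slide set were removed, it ran from -0.53 (Sall1) to 0.45 (Tmem119). With the 6 blood markers well above background on all arrays, r of the levels ran from -0.23 (Ptprc) to 0.84 (Cd3d). After those means were removed, it ran from 0.071 (Cd3d) to 0.27 (Nkg7). The part of microglia, blood cells or perivascular macrophages in the Cx3cr1 difference was not tested. The genes most like Cx3cr1 over 18 arrays, after the means of group by slide set were removed, were Glra2, a glycine receptor subunit (r = 0.94, and 0.93 for the levels), and Vom2r18, a vomeronasal receptor (r = 0.88 and 0.97), among 12013 genes searched.

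**Figure D2:**
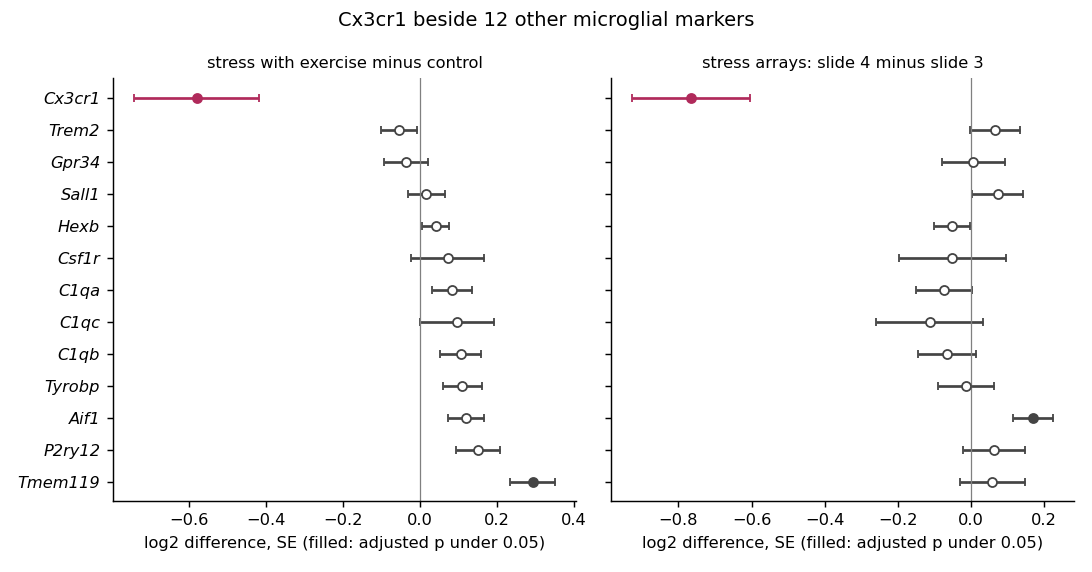
Difference (log2, with SE) of Cx3cr1 and 12 other microglial markers between exercised and control rats (left) and between stressed rats on slide 4 and slide 3 (right); filled points have an adjusted p under 0.05. Cx3cr1 lies at -0.58 and -0.77, while the other markers lie between -0.054 and 0.29 on the left. Itgam, kept in the adhesion list and called lower in both contrasts, is not shown.

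Cx3cl1, the neuronal ligand of Cx3cr1 (probe A_44_P116591, 10 spots per array), did not pass the test in any contrast. Its level ran from 5.38 to 5.77 with a median of 5.61 in control rats, from 5.30 to 5.72 with a median of 5.63 in stressed rats, and from 5.601 to 5.94 with a median of 5.81 in exercised rats. The groups overlapped in every pair, and 1.76% of named genes had exercised and stressed rats that did not. All 6 exercised rats were above the stressed mean, with a difference of 0.23 (SE 0.085, 95% interval 0.052 to 0.41, adjusted p = 0.11). Exercised minus control was 0.18 (SE 0.085, adjusted p = 0.134) and stressed minus control -0.054 (adjusted p = 0.834). Without stress 5 and 6 exercised minus stressed was 0.30 and passed (SE 0.093, adjusted p = 0.0279), where 17.1% of named genes were called higher, and within the slide set that holds both groups it was 0.10 (SE 0.11 with the slide set in the model). The sheddases of Cx3cl1 did not pass: exercised minus control was 0.17 for Adam10 (adjusted p = 0.225) and 0.21 for Adam17 (adjusted p = 0.158).

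Cx3cl1 varied from rat to rat together with some genes of the neighbouring thalamus. The genes most like it, after the means of group by slide set were removed, were the homeobox gene Shox2 (r = 0.99, and 0.74 for the levels) and the transcription factor Lef1 (r = 0.98 and 0.89), both known from thalamic neurons. A list of 12 thalamic markers was then drawn up, after these values were seen, and 8 were averaged (Prkcd, Tnnt1, Rgs16, Ntng1, Plekhg1, Zic1, Gbx2 and Calb2), leaving out Shox2 and Lef1. All 8 were well above background on all 18 arrays. Their mean ran from 0.27 to 1.48 in control, from 0.11 to 1.03 in stressed and from 0.46 to 1.50 in exercised rats. The r between Cx3cl1 and this mean over 18 arrays was 0.87 (rho 0.86), and 0.79 without stress 2 and stress 4, the arrays farthest from its median. By group, with 6 arrays each, r was 0.98 in control (rho 0.89), 0.94 in stressed (rho 0.60) and 0.98 in exercised rats (rho 0.89). The markers differed among themselves, with r over 18 arrays from 0.017 for Tnnt1 and 0.41 for Calb2 to 0.95 for Plekhg1. These are descriptions of arrays that share dissection and slide. With that mean as a covariate, added after the data were seen, Cx3cl1 differed by 0.11 between exercised and stressed rats (SE 0.036, adjusted p = 0.112). Its exercised minus control difference was 0.18 (SE 0.033, adjusted p = 0.00173), where 29.7% of named genes were called, 19.4% higher and 10.3% lower. Without the covariate that difference was also 0.18, with an SE of 0.085. The list followed from genes picked for likeness to Cx3cl1 on these same arrays. The smaller SE and adjusted p are thus not independent evidence of a difference. Of the 10 thalamic markers tested 0 passed in any contrast, beside 28% of named genes between exercised and control rats. With the slide set in place of that mean, Cx3cl1 differed by -0.019 between exercised and control rats (adjusted p = 0.984). The part of thalamic tissue in the Cx3cl1 differences was not tested.

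**Figure D3:**
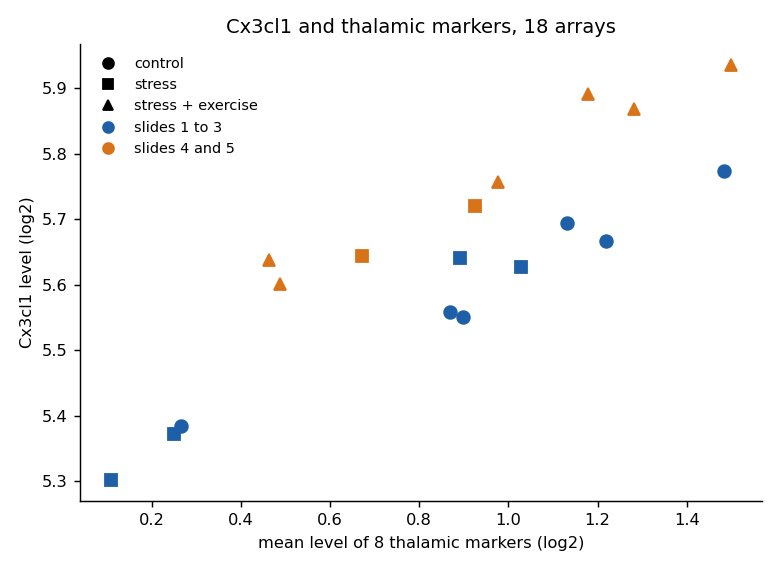
Cx3cl1 level against the mean level of 8 thalamic markers (both log2 signal minus the array's 75th percentile) for 18 arrays; circles are control, squares stressed and triangles exercised rats, blue for slides 1 to 3 and orange for slides 4 and 5. Points rise together within each group, less closely by rank in stressed rats (rho 0.60) than in control or exercised rats (rho 0.89 each). The orange points lie above blue points of like marker level.

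The monocyte pair was near or below the limit of detection. Ccl2 (probe A_42_P695401, 10 spots per array) was well above background on 17 of 18 arrays, the exception being in the stressed group. Its level ran from -5.45 to -4.33 with a median of -4.64 in control, from -5.17 to -4.54 with a median of -4.80 in stressed, and from -5.15 to -4.31 with a median of -4.71 in exercised rats. The 3 ranges overlapped nearly whole, and the differences were -0.11 for stressed minus control (95% interval -0.50 to 0.29), 0.16 for exercised minus stressed (-0.24 to 0.55) and 0.048 for exercised minus control (-0.35 to 0.44). Its receptor Ccr2 (probe A_64_P100793) was well above background on 1 of 18 arrays, control 1 at -4.41, and had measured levels from -7.80 to -5.02 on the other 17. Ccr2 was not tested, and no fold is given.

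The cytokine-induced ligands Ccl5, Cxcl10 and Ccl3 were well above background on all 18 arrays and none passed the test. Ccl5 (probe A_64_P115060) ran from -0.96 to -0.55 with a median of -0.73 in control, from -1.07 to -0.76 with a median of -0.92 in stressed, and from -1.11 to -0.68 with a median of -0.99 in exercised rats. All 6 stressed rats were below the control mean, by 0.19 on average (95% interval -0.37 to -0.014, adjusted p = 0.396), a difference of -0.19 with the slide set in the model as well (adjusted p = 0.593). Exercised minus control was -0.18 (SE 0.085, adjusted p = 0.121), and -0.22 with an adjusted p of 0.0451 when scan day was a block, where 11.9% of named genes were called lower. Cxcl10 (probe A_44_P1039128), the interferon-induced ligand of T cells, ran from -4.05 to -2.89 with a median of -3.52 in control, from -3.92 to -2.83 with a median of -3.39 in stressed, and from -4.79 to -3.18 with a median of -3.82 in exercised rats. All ranges overlapped, 5 of 6 exercised rats were below the stressed mean, and exercised minus stressed was -0.52 (SE 0.27, 95% interval -1.08 to 0.051, adjusted p = 0.25). Ccl3 (probe A_42_P714311), a macrophage inflammatory protein, ran from -4.50 to -3.22 with a median of -4.09 in control, from -4.69 to -4.04 with a median of -4.23 in stressed, and from -5.47 to -3.64 with a median of -4.18 in exercised rats. All 6 stressed rats were below the control mean of -3.98 ± 0.49 (SD, n = 6), with a difference of -0.32 (95% interval -0.88 to 0.24, adjusted p = 0.638). The control rats split by slide, with Ccl3 means of -3.41 on slide 1 (n = 2) and -4.27 on slide 2 (n = 4). Stress 1 to 4 had a mean of -4.14, and stress 5 and 6 of -4.62. Exercised minus control was -0.46 for Cxcl10 (95% interval -1.03 to 0.10) and -0.36 for Ccl3 (-0.92 to 0.19) and both intervals include 0.

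**Figure D4:**
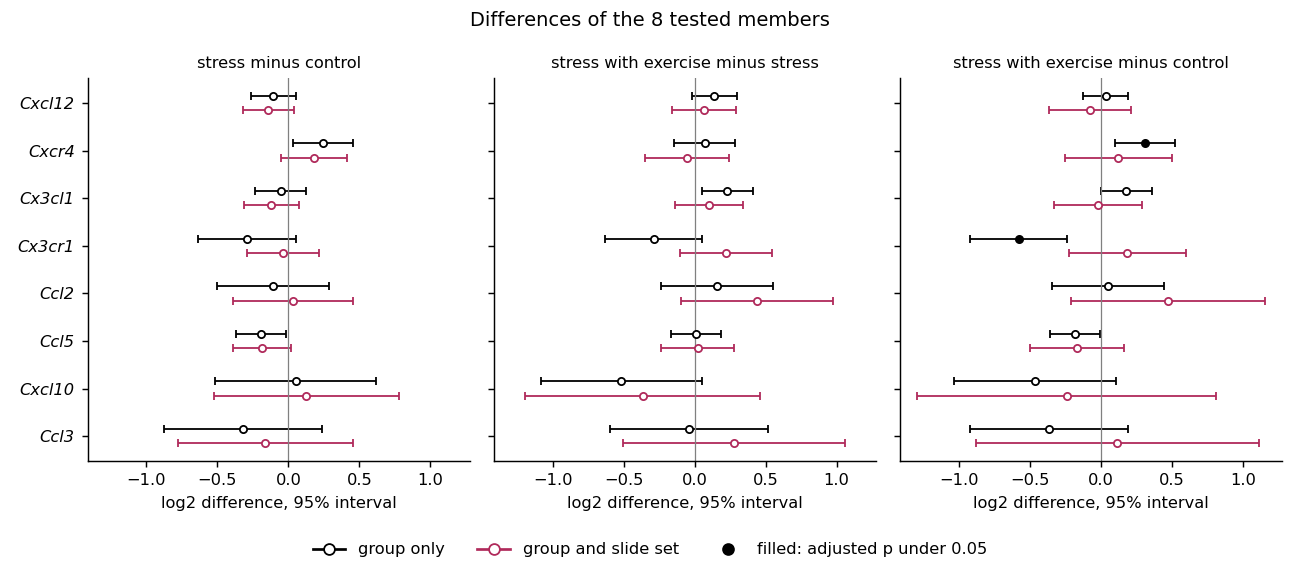
Log2 difference with 95% interval of the 8 tested members in the 3 contrasts, from the model of group alone (black) and with the slide set added (red); filled points have an adjusted p under 0.05. Only Cxcr4 at 0.31 and Cx3cr1 at -0.58 between exercised and control rats are filled, and with the slide set they lie at 0.12 and 0.19.

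Other genes of the pathway were read beside the members in 5 lists: 30 further ligands, 20 further receptors, 20 genes of processing and signalling, 20 adhesion genes of leukocytes and vessels, and 20 cytokine and NF-kappaB genes that induce chemokines. Of these 110 genes, 102 had a probe and 71 were tested. Between stressed and control rats 0 of 71 passed limma's test, with 6 at an unadjusted p under 0.05. The smallest p there belonged to the gut-homing receptor Ccr9 (-0.19, adjusted p = 0.398), the interferon regulator Irf7 (0.33, adjusted p = 0.402) and the NF-kappaB subunit Rela (0.13, adjusted p = 0.406). Between exercised and stressed rats 0 of 71 passed, with 12 at an unadjusted p under 0.05, led by the receptor kinase Grk2 (0.20, adjusted p = 0.0826), the integrin Itgam (-0.27, adjusted p = 0.0853) and Nfkb1 (0.21, adjusted p = 0.0915). Without stress 5 and 6, 15 of 71 passed in that contrast, where 26.5% of named genes passed.

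Between exercised and control rats 11 of 71 passed, 4 higher and 7 lower, with a median difference of 0.016 over the 71 beside 0.051 over all named genes. Of all named genes 28% passed, 18.1% higher and 9.84% lower. Among other ligands 3 of 14 tested were lower: Ccl22, which draws regulatory T cells, by 0.71 (SE 0.17, adjusted p = 0.00515), Ccl9 by 0.62 and the eosinophil ligand Ccl24 by 0.54. Ccl22 had a mean of 2.25 ± 0.16 in control, 1.95 ± 0.47 in stressed and 1.55 ± 0.15 in exercised rats (SD, n = 6). Among other receptors Ccr9 fell by 0.42 (SE 0.082, adjusted p = 0.00173) and the atypical receptor Ccrl2 by 0.56, while Ccr10 rose by 0.30. Of the signalling genes the G protein subunit Gnai3 fell by 0.15 (SE 0.039, adjusted p = 0.0098) and the arrestin Arrb2 rose by 0.22. Of the adhesion genes Itgam, the alpha chain of the complement receptor on myeloid cells, fell by 0.38 (SE 0.089, adjusted p = 0.00515) and Cd99, which helps leukocytes cross endothelium, rose by 0.21 (SE 0.055, adjusted p = 0.0093). Of the inducers Rela rose by 0.20, while Tnf at 0.41 (adjusted p = 0.0587) and Il1b at 0.26 (adjusted p = 0.272) did not pass. With the slide set in the model 0 of 71 passed, and 11 of 71 were called between slides 4 and 3 of the stressed group (2 higher and 9 lower). There 16.5% of named genes were called, 9.66% higher and 6.8% lower. Of the 11 genes called between exercised and control rats 5 were among those, all 5 with the same sign: Ccl9, Ccl22, Ccrl2, Itgam and Arrb2. All exercised rats lay on slides 4 and 5 and all control rats on slides 1 and 2. The share of all named genes called in both contrasts is not given here, so these 5 are not read as a result about the pathway. Il6, Ifng, Cxcl1 and Ccl4, which encode inflammatory cytokines and chemokines, were not well above background on any array.

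**Figure D5:**
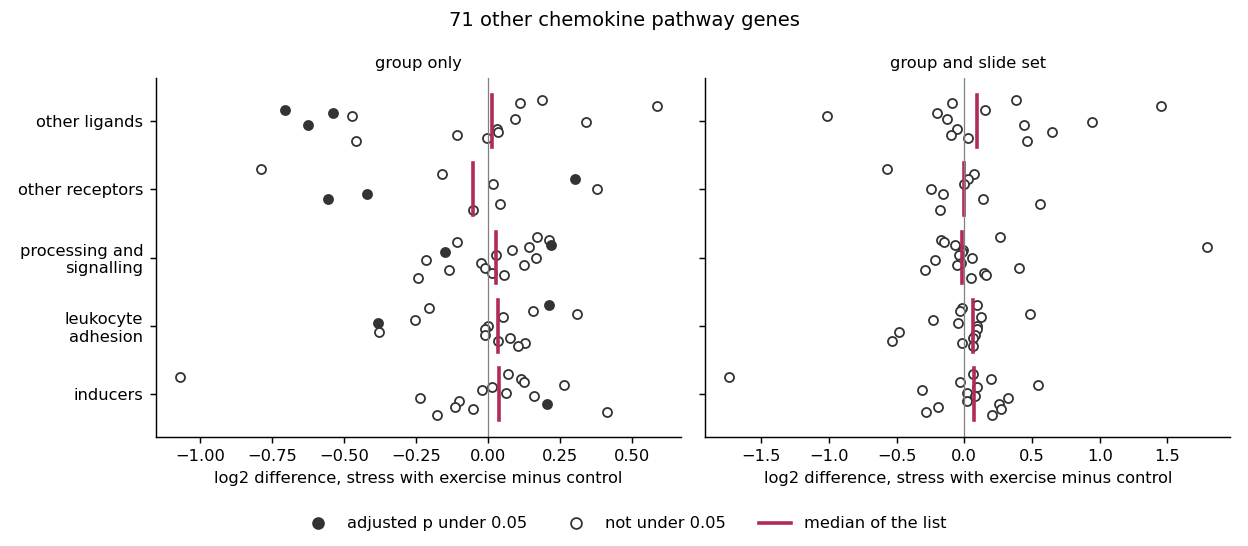
Log2 difference between exercised and control rats for each of 71 tested pathway genes by list, from the model of group alone (left) and with the slide set added (right); filled points have an adjusted p under 0.05 and the red bar is the median of the list. On the left 11 points are filled, 4 above and 7 below 0, and on the right 0.

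The remaining members had these nearest genes over 18 arrays after the means of group by slide set were removed. Cxcr4 was most like Wdr26 (r = 0.84, and 0.89 for the levels) and Or51i2 (0.81 and 0.20). Cxcl12 was most like Dlx3 (0.78 and -0.050) and Aplp2 (0.78 and 0.58), and Ccl5 most like Hsd17b11 (0.85 and 0.45) and Slc6a12 (0.80 and 0.52). Cxcl10 was most like L3hypdh (0.84 and 0.39) and Syt16 (0.81 and 0.55), and Ccl3 most like Hist1h2bg (0.82 and -0.12) and Phc2 (0.81 and -0.16). These were picked as the highest among 12013 genes. Between ligand and receptor, r was 0.019 for Cxcl12 with Cxcr4 and 0.27 for Cx3cl1 with Cx3cr1, and 0.045 and -0.37 for the levels.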

How the data were processed

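Total RNA of each hypothalamus was labelled with Cy3 and hybridised to a 1-colour Agilent rat array; per the labels all samples had an RNA integrity number above 7. The deposited values are background-subtracted processed intensity per spot, made by the authors with Agilent Feature Extraction (version 12.1.0.3 per the file headers, 9.1 per the submitters' processing notes). The authors' deposited matrix is that intensity times 1 constant per array and served as an alternative.

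Outlier and control spots were left out, spots of a probe were averaged, and log2 intensity minus the array's 75th percentile over probes was used; taking the percentile over spots is an alternative added after the data were seen. Of 45598 probes, 21220 were named through their accession and 24378 were left unnamed. A probe was tested if well above background on at least 5 of 6 arrays of a group; a gene is its brightest tested probe. R 4.3.3 with limma 3.58.1 (lmFit and eBayes, group as the only term) was run on all 18 arrays, with Benjamini-Hochberg adjustment over 31293 probes and a threshold of 0.05, and was tested on simulated data.

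Named are all members; the 6 pathway genes with the smallest p among those that passed, or the 3 smallest where none did; the 2 genes most like each member; and marker genes read beside them. The other called pathway genes, Tnf, Il1b, Ackr3, Adam10, Adam17, the undetected genes and the thalamic list were named after their values were seen. Members and lists were chosen with earlier results of these data known. The normexp alternative used median spot signals, since no mean spot signals were given for the arrays. Start windows came from RefSeq (GRCr8).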

Additional observations from a re-analysis of the deposited data

Results flagged for a closer look

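In 33 groups of 6 arrays (each of the 11 member probes in each group), 3 held an array whose gap to its nearest neighbour was above the critical share of the group's range for 6 values (Dixon's test). Chance picks out about 1 in 20 groups. Cxcl12 on probe A_44_P337351 was lowest in exercised 6, at 1.36, with the next exercised rat at 1.59. Cxcl12 on probe A_64_P135474 was highest in exercised 1, at 0.90, with the next at 0.43. Ccr2 was highest in control 1, at -4.41, with the next control rat at -6.18.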

How the results depend on the processing

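The count of members called between exercised and control rats was 2, and it was 1 after normexp background correction, 0 with slide as a random block (consensus correlation 0.37), 0 with the slide set as a covariate, 3 with scan day as a block (Ccl5 added), and 1 to 2 when each array was left out in turn. Between exercised and stressed rats it was 0, and 2 without stress 5 and 6 (Cx3cr1 and Cx3cl1). For pathway genes the count between exercised and control rats was 11, and it was 18 after quantile normalization, 17 with scan day as a block, 1 with slide as a random block, 0 with the slide set, and 9 to 14 when each array was left out. Between exercised and stressed rats the pathway count was 0, and it was 2 after normexp, 1 with scan day as a block, 15 without stress 5 and 6, and 0 to 6 when each array was left out. The replicate numbers of the labels did not pair the rats: over 18 pairs the correlation of deviations ran from -0.25 to 0.19, 4 were over 0.1, and 0 of 18 arrays correlated best with its own number. With the replicate block, 2 members and 10 pathway genes were called between exercised and control rats. Of all named genes, 28% passed in that contrast in the main model and 0.00766% with the slide set, and 11.9% were called lower with scan day as a block. Between exercised and stressed rats 3.27% passed, and 26.5% without stress 5 and 6. Shares under the other settings are not given here, so the counts are not read as results about the chemokine genes. When each array was left out in turn, 6 differences changed sign at least once, none of them past the threshold: stressed minus control of Cxcl10 (-0.068 to 0.17), exercised minus control of Ccl2 (-0.094 to 0.14) and Cxcl12 (-0.020 to 0.077), and exercised minus stressed of Cxcr4 (-0.014 to 0.13), Ccl3 (-0.18 to 0.18) and Ccl5 (-0.037 to 0.049). Under the other settings these differences changed sign. With the slide set as a covariate: Cx3cr1 0.19 and Cx3cl1 -0.019, Cxcl12 -0.074 and Ccl3 0.12 for exercised minus control, Cx3cr1 0.22, Cxcr4 -0.055 and Ccl3 0.28 for exercised minus stressed, and Ccl2 0.034 for stressed minus control. The exercised minus stressed values and that of Ccl2 were the same within 1 slide set, and that of Ccl2 was the same without stress 5 and 6. With slide as a random block, exercised minus stressed was -0.040 for Cxcr4, -0.050 for Ccl5 and 0.0056 for Ccl3. After normexp it was 0.045 for Ccl3 and -0.0064 for Ccl5, and stressed minus control was -0.0076 for Cxcl10. In the authors' matrix exercised minus stressed was -0.0073 for Ccl5. Quantile normalization gave Ccl2 0.021 for stressed minus control, and scan day as a block gave it -0.054 for exercised minus control. In settings added after the data were seen, stressed minus control of Cx3cl1 was 0.063 with the thalamic mean and 0.13 within scan day 1, and exercised minus stressed within scan day 1 was 0.20 for Cx3cr1 and -0.18 for Cxcr4. Of these only exercised minus control of Cx3cr1 had passed the test. The causes were not tested. Ccr2 gave no value in fits limited to detected probes, and Ccl2 none where all 18 arrays had to be well above background. Group and slide are confounded, and dim probes (Ccl2, Ccr2) limit what can be told.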
